A study of Mus musculus with 17 samples.

Results

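The genes described here encode the proteins of the cytosolic ribosome. They were taken by symbol: Rpl or Rps followed by a number, with or without a final a, x or l, together with Rpsa and the stalk genes Rplp0, Rplp1 and Rplp2. Processed copies, whose symbols carry -ps, and the Rps6k kinase genes were left out. The pattern found 83 of 49315 genes in the liver table, 51 of the large (60S) subunit and 32 of the small (40S) subunit, and 79 had enough reads to be tested. It found 79 of 15632 genes in the hepatocyte tables, 48 of the 60S and 31 of the 40S subunit, and 77 were tested. Rpl10l, Rpl3l, Rpl6l and Rps4l were found in the liver table alone.

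Each cytosolic ribosome holds one copy of nearly every one of these proteins around its ribosomal RNA, so the genes are known for being transcribed and translated together. Most of their mRNAs begin with a run of pyrimidines, the 5′ terminal oligopyrimidine (TOP) motif, through which mTOR complex 1 and the RNA-binding protein Larp1 control how much of each mRNA is translated. The intron-bearing genes have left many processed copies in the mouse genome, made from reverse-transcribed mRNA. Reads from a gene and from a near-identical copy are hard to assign, so sums of gene and copies are given where a copy was called or the sum changed a call. Summed with processed copies, the calls of Rpl34 and Rpl31 changed. These were the only members with such a copy in the hepatocyte tables, and in liver no member was called with or without copies. The lack of other changes therefore says nothing about the other members. With copies of any annotated type Rpl37 also lost a call.

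RNA sequencing was done on 2 mouse experiments, and the labels give the groups. The first is liver from mice labelled SMSrKO (n = 4) and WT (n = 4), all fed a high-fat diet with fructose in the drinking water for 16 weeks. The second is hepatocytes isolated with collagenase from 2-month-old mice labelled dKO, which lack Sms1 and Sms2 (n = 3), tKO, which lack Sms1, Sms2 and Smsr (n = 3), and WT (n = 3). SMSr, gene symbol Samd8, is a relative of the sphingomyelin synthases SMS1 and SMS2, gene symbols Sgms1 and Sgms2. The labels give no strain, no promoter or Cre driver and nothing on whether each library is another animal; the p-values cover the spread between libraries, which may be technical. Library totals ran from 24391627 to 47351126 counts in liver and from 9221481 to 9665310 in hepatocytes. CPM (counts scaled to a common depth) of single genes are relative to the TMM-scaled library total, and sums over many genes are relative to the plain total.

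The targeted genes were checked first. Samd8 averaged 54.2 ± 3.67 CPM in livers labelled SMSrKO and 42.6 ± 6.38 CPM in WT livers (SD, n = 4 each). Sgms1 averaged 90.5 ± 5.55 CPM in dKO, 58.7 ± 3.31 in tKO and 49.8 ± 3.34 in WT hepatocytes (SD, n = 3 each), Sgms2 150.0 ± 15.8, 149.6 ± 7.12 and 183.0 ± 7.69 CPM, and Samd8 81.6 ± 6.01, 100.6 ± 2.94 and 69.7 ± 3.57 CPM. Only Sgms2 was lower than in WT, and by little; these counts cover whole genes, and the deleted parts are not given in the labels. The levels therefore go against the genotype labels or do not report on them, and every direction below is between libraries labelled SMSrKO, dKO, tKO and WT. Although an extract protocol on the labels names white fat, the liver libraries held 0.0338 to 0.0954 CPM (SMSrKO) and 0.0370 to 0.0716 CPM (WT) over the adipocyte genes Adipoq, Lep and Plin1, with Lep at 0, against 74010 to 84020 and 55790 to 66400 CPM over 5 hepatocyte genes.

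Per length, in TPM (transcripts scaled by length and depth), the highest ribosomal protein mRNA in liver was Rplp1, which encodes an acidic protein of the ribosomal stalk, the site that recruits elongation factors. It stood at 969.7 ± 68.2 TPM in SMSrKO and 986.4 ± 2.44 TPM in WT livers (SD, n = 4 each). In the mean over all 8 livers Rpl8, Rps12, Rpl36 and Rps2 followed, with 693.7, 637.3, 611.6 and 567.5 TPM. This order depends on the exon length used for each gene, 499 bases for Rplp1 and 1830 for Rps2. In CPM, without length, Rps2 stood higher, at 506.3 in SMSrKO and 440.4 in WT livers, against 224.1 and 220.1 for Rplp1. In hepatocytes Rps2, whose protein lies at the mRNA entry side of the 40S subunit, was highest, at 1159 ± 37.1 FPKM in dKO, 1034 ± 22.7 in tKO and 1087 ± 14.5 FPKM in WT libraries (fragments per kilobase, scaled by depth; SD, n = 3 each). Rpl10, Rplp1, Rpl28 and Rps26 came next, with 922.2, 830.0, 769.5 and 741.1 FPKM in WT.

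Of the paralogs, Rps27l, a relative of Rps27 induced by p53, was the best expressed and stood amid the standard members in liver, at rank 34 of 83. Rps27l averaged 203.8 ± 14.1 TPM in SMSrKO and 225.7 ± 14.9 TPM in WT livers (SD, n = 4 each), and 104.1 ± 10.6 FPKM in dKO, 98.5 ± 4.27 in tKO and 99.6 ± 13.6 FPKM in WT hepatocytes (SD, n = 3 each), with no call in any comparison. The other paralogs stood at the low end. Rps4l stood at 16.9 ± 2.94 TPM in SMSrKO and 17.0 ± 4.43 TPM in WT livers, and Rpl6l at 1.40 ± 0.395 and 1.43 ± 0.262 TPM. Rpl32l, Rpl39l, Rpl3l and Rpl10l averaged 1.15, 0.267, 0.263 and 0.0405 TPM over the 8 liver libraries and were too low to test. Rpl3l is known from heart and skeletal muscle, and Rpl10l and Rpl39l from testis. Rpl32l and Rpl39l had at most 1 read in any hepatocyte library. Among the standard members, Rps15a was the lowest per length in the mean over all libraries of both experiments. In dKO and tKO hepatocytes Rpl34, described below, was lower. Rps15a stood at 26.4 ± 3.83 TPM in SMSrKO and 27.4 ± 1.17 TPM in WT livers, with an exon length of 6270 bases. In CPM it was not the lowest: it had 76.5 and 76.6, against 34.0 and 29.9 for Rpl24.

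The order of the genes was only partly alike in the 2 experiments. Across the 77 genes tested in both, WT liver TPM and WT hepatocyte FPKM had a Spearman rho of 0.52 and a Pearson r of 0.57 on the log2 scale, as a description; the points of each experiment share libraries, and the gene models of the 2 tables differ. Rps15a and Rps20 were low in both, and Rplp1 and Rps2 high in both.

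**Figure D1:**
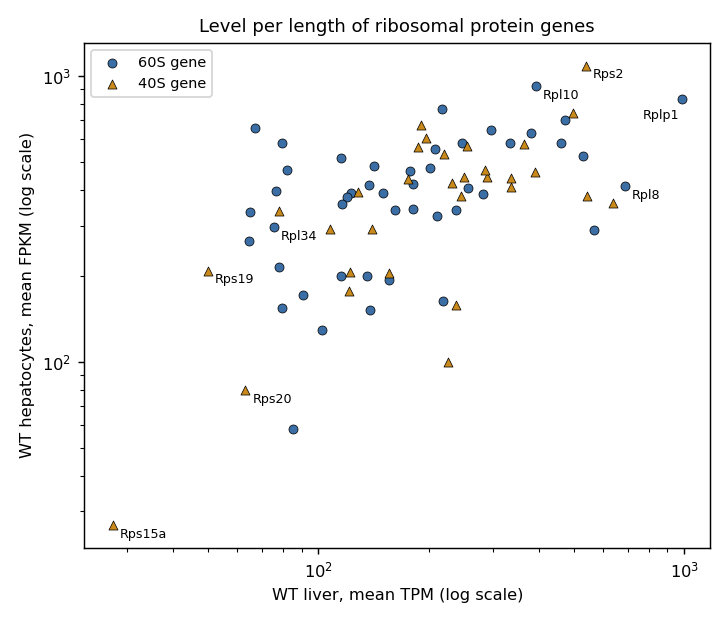
Mean level per length of the 77 ribosomal protein genes tested in both experiments, WT liver TPM on the horizontal and WT hepatocyte FPKM on the vertical axis, both on log scales. Circles are 60S genes and triangles 40S genes; Rps15a is lowest on both axes, and the rank correlation is 0.52.

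A run of pyrimidines at an annotated start site was found in a part of the group, and more often than over all genes. RefSeq start sites (build GRCm38.p6) were matched for 61 symbols of the group. Where a symbol had several start sites the longest run was taken, which gives symbols with more sites more chances of a run. A run of at least 8 C or T letters on the transcribed strand, touching the bases from 5 before to 5 after the annotated start, was found in 24 of 61 (39.3%), against 3068 of 27025 genes (11.4%). The 4 windows below run from 10 bases before the start to the bases after it, 30 in all. They are examples, with longer and shorter runs, from genes named in the results. Capitals mark the longest run that touches those bases around the start.
Rpl34, chr3:130730318-130730347, minus strand: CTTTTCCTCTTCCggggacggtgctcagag
Rps6, chr4:86857348-86857377, minus strand: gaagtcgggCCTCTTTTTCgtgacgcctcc
Rplp0, chr5:115559457-115559486, plus strand: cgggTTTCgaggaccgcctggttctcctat
Rps2, chr17:24720053-24720082, plus strand: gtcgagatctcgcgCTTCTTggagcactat
The run of Rpl34 is 20 letters long and begins left of the window, and that of Rps6, whose protein is the substrate of the S6 kinases, is 10 letters long. The runs of Rplp0 and Rps2 at the annotated start are 4 and 6 letters long. Those of Rps12 and Rps27l, whose windows are not printed, are 2 and 9 letters long. A match is a description of these letters and was not read as a measure of translation.

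Together the group took a steady share of each library. The members held 1.13% to 1.40% of all counts in SMSrKO and 1.16% to 1.23% in WT livers. SMSrKO 8 had the 1.40% and the other 3 SMSrKO livers 1.13% to 1.20%, so the groups overlap. In hepatocytes the share was 2.31% to 2.42% in dKO, 2.36% to 2.42% in tKO and 2.26% to 2.32% in WT libraries. The 3 tKO libraries all lay above the 3 WT libraries, and dKO 4 lay within the WT range. This separation rests on plain totals: relative to TMM-scaled totals the members summed to 23420, 23910 and 23440 CPM in tKO, against 23460, 23070 and 22770 CPM in WT libraries, and the groups overlap. The ratio of 60S to 40S counts was 1.49 to 1.51 in SMSrKO and 1.51 to 1.54 in WT livers, and 1.51 to 1.54 in dKO, 1.56 to 1.57 in tKO and 1.55 to 1.57 in WT hepatocytes. Members also varied little within a group: their median coefficient of variation was 7.73% in SMSrKO and 4.30% in WT livers, against 13.6% and 15.3% over all genes tested. In hepatocytes it was 4.05% in dKO, 2.93% in tKO and 2.77% in WT libraries, against 6.25%, 6.63% and 5.98% over all genes tested. Most members have high counts and the genes were not matched by level, so the part of level in this difference was not tested.

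**Figure D2:**
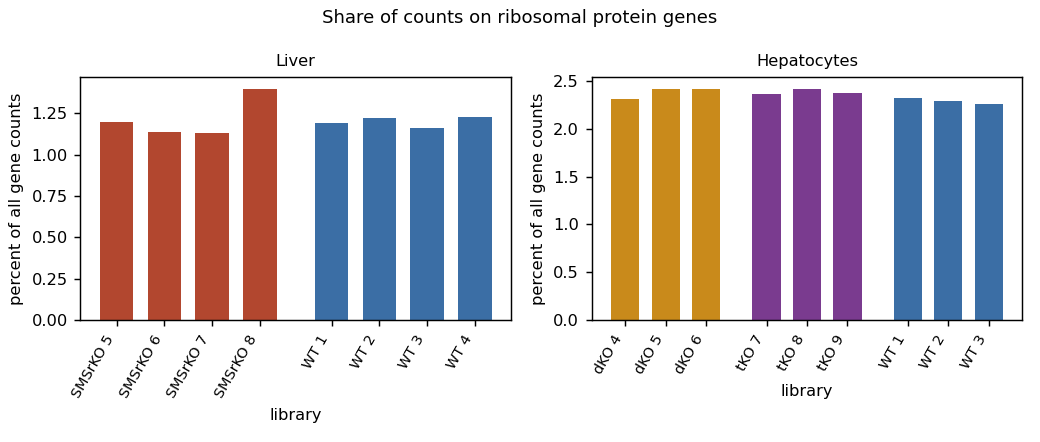
Percent of all gene counts that fell on the ribosomal protein genes, one bar per library, liver on the left and hepatocytes on the right, each panel with its own axis from 0. SMSrKO 8 stands at 1.40% among livers of 1.13% to 1.23%, and the hepatocyte libraries lie between 2.26% and 2.42%.

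In hepatocytes the one large difference lay in Rpl34, a 60S protein gene, and it was matched by an opposite difference in its processed copy Rpl34-ps1. Rpl34 had 5.23, 5.37 and 4.64 CPM in the libraries labelled dKO and 5.16, 7.60 and 3.56 CPM in those labelled tKO, against 128.8, 130.3 and 129.6 CPM in WT. Rpl34-ps1 had 172.7, 156.8 and 175.2 CPM in dKO and 169.6, 171.0 and 165.0 CPM in tKO, against 2.74, 3.78 and 2.82 CPM in WT. The groups lie far apart for both, in opposite directions, and dKO and tKO overlap for both.

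The direction called for Rpl34 differed between the gene alone and its sum with the copy. By edgeR's quasi-likelihood test over 11471 genes, Rpl34 alone was lower in dKO than in WT hepatocytes, with a log2 fold change of -4.67 (SE 0.098, adjusted p = 1.8e-51), and likewise in tKO, with -4.57 (SE 0.096, adjusted p = 1.05e-51). The copy was higher, by 5.75 in dKO (SE 0.094, adjusted p = 2.79e-64) and by 5.75 in tKO (SE 0.093, adjusted p = 7.41e-65); its comparison was chosen after its values were seen. The sum of gene and copy was 173.3 ± 9.69 CPM in dKO and 174.0 ± 5.06 in tKO, against 132.7 ± 1.26 CPM in WT libraries (SD, n = 3 each). Tested as one feature, the sum was higher in dKO by 0.39 (SE 0.048, adjusted p = 7.36e-11, edgeR) and in tKO by 0.39 (SE 0.047, adjusted p = 3.24e-11, edgeR), the opposite direction to Rpl34 alone. The copy took 97.1 ± 0.368% of the summed counts in dKO, 96.9 ± 1.08% in tKO and 2.34 ± 0.415% in WT libraries.

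The coding bases of gene and copy are almost the same. Rpl34 lies on chromosome 3 (GRCm38, chr3:130726831-130730398, minus strand), and Rpl34-ps1 is annotated as a processed pseudogene on chromosome 6 (chr6:71124610-71124963, plus strand). Over the 354 coding bases they differ at 2 positions, T132C and C318G, giving 99.44% identity; positions are counted from 1 at the A of the start codon, with the base of the gene first and that of the copy last. The 60 coding bases around the first of these positions, from GENCODE M21 transcripts, are given below. They carry one of the few coding letters by which a read can be assigned, and the capital marks position 132.
Rpl34, coding bases 102 to 161: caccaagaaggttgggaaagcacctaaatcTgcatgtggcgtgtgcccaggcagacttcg
Rpl34-ps1, coding bases 102 to 161: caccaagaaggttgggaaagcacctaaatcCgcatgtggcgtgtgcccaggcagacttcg
A read that lies within the coding bases and covers neither position matches both sequences. The annotated copy is 354 bases long and the Rpl34 transcript compared is 480. The bases of Rpl34 outside the coding part therefore have no match in the annotated copy. How the authors' counting placed such reads is not given in the sources used here, and which of the 2 loci the RNA came from was not tested. In liver no such exchange was seen. Rpl34 averaged 95.0 ± 8.32 CPM in SMSrKO and 88.9 ± 3.64 CPM in WT livers, and Rpl34-ps1 0.350 ± 0.146 and 0.355 ± 0.195 CPM (SD, n = 4 each). The 2 experiments were counted against different gene tables, so copy levels are not comparable between them.

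**Figure D3:**
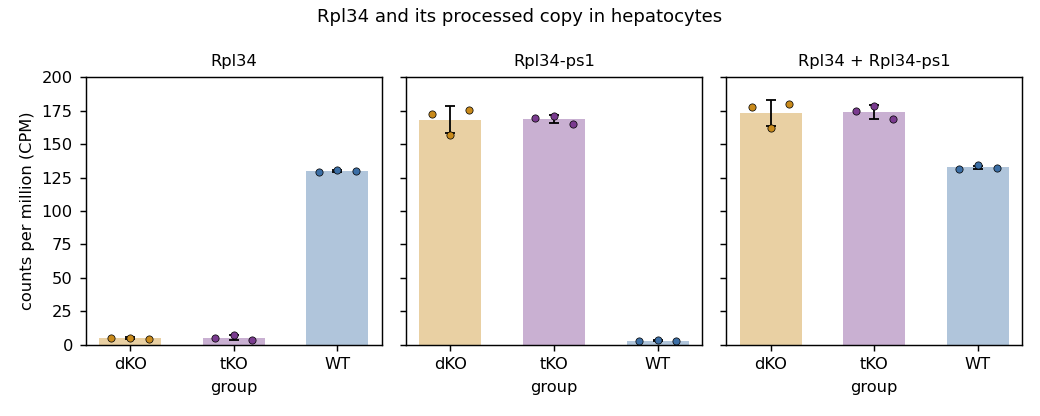
CPM of Rpl34, of its processed copy Rpl34-ps1 and of their sum in dKO, tKO and WT hepatocytes. Bars are group means, error bars SD and points the 3 libraries of a group; gene and copy change places between the knockout and WT libraries, and the sum is 173.3, 174.0 and 132.7 CPM.

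Apart from Rpl34, members differed by little between dKO and WT hepatocytes. By edgeR's test 23 of 77 were higher and 2 lower in dKO, which is 32.5%, against 44.0% of all genes tested; the higher ones make 29.9%, against 24.0% of all genes, and 20.0% of all genes were lower. Without dKO 6, 14 were higher, and without dKO 5 or WT 3, 15. The median log2 fold change of the members was 0.07 (0.04 without dKO 5), against -0.01 over all genes. Of the members 1, Rpl34, differed by at least 1.5-fold, against 1688 of 11471 genes. Of the 60S genes 15 of 46 were higher and 2 lower, and of the 40S genes 8 of 31 were higher and none lower. With the sum in place of Rpl34, 24 were higher and 1 lower.

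Among the higher members the difference was greatest in Rpl27, a 60S gene. Rpl27 had 163.5, 157.7 and 154.1 CPM in dKO libraries, against 138.2, 135.4 and 127.5 CPM in WT, a log2 fold change of 0.24 (SE 0.047, adjusted p = 1.13e-05, edgeR). The groups do not overlap. Rpl9 followed, with 275.2, 269.5 and 281.5 CPM in dKO, against 237.6, 240.0 and 242.3 CPM in WT (log2 fold change 0.20, SE 0.042, adjusted p = 4.68e-05, edgeR). The next were Rpl39, whose small protein lines the exit tunnel of the ribosome, at 0.19, Rps14 at 0.18 and Rps24 at 0.18. After them came Rpl7 at 0.18, Rpl31 at 0.17, Rpl23 at 0.16, Rps12 at 0.16 and Rps19 at 0.15 on the log2 scale. RPS19, RPS24 and RPS14 are known in human disease: variants of RPS19 and RPS24 cause Diamond-Blackfan anaemia, and loss of a copy of RPS14 underlies the anaemia of the 5q deletion syndrome. Of these 10 higher genes, Rpl39, Rps14 and Rpl23 had groups that overlapped. Groups without overlap, in either direction, were less frequent in members (32.5%) than over all genes tested (51.9%). By edgeR, Rpl39 lost its call without WT 3 (0.125, adjusted p = 0.167) or dKO 4 (0.16, adjusted p = 0.0698), and Rps14 (0.12, adjusted p = 0.0505) and Rps19 (0.11, adjusted p = 0.0995) lost theirs without dKO 6.

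The only member lower in dKO besides Rpl34 was Rpl3, whose protein lies close to the peptidyl transferase centre. Rpl3 had 389.9, 403.2 and 440.0 CPM in dKO, against 453.4, 440.9 and 437.6 CPM in WT libraries, and dKO 6 lay within the WT range. Its log2 fold change was -0.11 (SE 0.040, adjusted p = 0.0178, edgeR), and it lost the call without dKO 4 (-0.075, adjusted p = 0.173), without dKO 5 (-0.10, adjusted p = 0.0826) or without WT 1 (-0.10, adjusted p = 0.0788), and by limma (-0.11, adjusted p = 0.0587).

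Between tKO and WT hepatocytes 22 of 77 members were higher and 5 lower, which is 35.1%, against 47.4% of all genes tested; the higher ones make 28.6%, against 25.6%, and 21.8% of all genes were lower. Without WT 3 or WT 2, 13 or 14 were higher, and 8 were lower without tKO 8 and 3 without WT 1, WT 2 or tKO 7. This comparison uses the same 3 WT libraries as the one before. The median log2 fold change was 0.03, against 0.00 over all genes. Of the 60S genes 16 of 46 were higher and 4 lower, and of the 40S genes 6 of 31 were higher and 1 lower. Scaled by plain library totals the split was 28 higher and 2 lower.

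Rps12, a 40S gene, was the member with the greatest rise. It had 201.5, 205.9 and 199.8 CPM in tKO, against 173.8, 166.0 and 165.7 CPM in WT libraries (log2 fold change 0.26, SE 0.045, adjusted p = 5.23e-07, edgeR); the groups do not overlap. Rpl7, a 60S gene, had 489.3, 482.6 and 464.9 CPM in tKO, against 419.5, 426.0 and 409.6 CPM in WT (0.20, SE 0.038, adjusted p = 1.32e-05, edgeR). Rps3, which encodes a 40S protein at the mRNA entry channel that also has a role in DNA repair, had 356.8, 365.1 and 373.8 CPM in tKO, against 334.3, 308.1 and 325.8 CPM in WT (0.18, SE 0.043, adjusted p = 4.21e-04, edgeR). All 3 genes were higher in every tKO library than in any WT library. Such separation, in either direction, was less frequent in members (40.3%) than over all genes tested (53.4%). Rpl27, Rpl37, Rpl32, Rps24, Rpl12, Rpl39 and Rps4x were also higher, by 0.15 to 0.17 on the log2 scale. Of these, Rpl39 lost its call by DESeq2 (adjusted p = 0.122) and, by edgeR, without WT 2, WT 3, tKO 8 or tKO 9, with 0.09 to 0.16 (adjusted p = 0.0815 to 0.35; the lowest without WT 3). Rpl37 lost its call without WT 2 (0.13, adjusted p = 0.0563, edgeR) and stood at 0.06 (adjusted p = 0.326, edgeR) when summed with its copies of any annotated type.

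The lower members in tKO, besides Rpl34, were Rpl3, Rpl14, Rps2 and Rpl28. Rpl3 had 404.3, 391.7 and 412.6 CPM in tKO, against 453.4, 440.9 and 437.6 CPM in WT libraries (log2 fold change -0.14, SE 0.040, adjusted p = 0.00233, edgeR), with no overlap. Rps2 had 943.8, 983.2 and 941.9 CPM in tKO, against 1013, 1036 and 1028 CPM in WT (-0.10, SE 0.036, adjusted p = 0.0143, edgeR), again with no overlap. Rpl14 and Rpl28 stood at -0.10 each. Of the lower members, Rpl34 and Rpl3 alone kept their calls with plain library totals, where Rps2 (-0.07, adjusted p = 0.0812), Rpl14 (-0.07, adjusted p = 0.152) and Rpl28 (-0.07, adjusted p = 0.17) lost theirs by edgeR. The same 3 lost them by limma, and Rpl14 and Rpl28 also by DESeq2. Leaving out 1 library ended the call of Rps2 without WT 2 (-0.09, adjusted p = 0.0653, edgeR). Rpl14 lost it without WT 1, WT 2, tKO 7 or tKO 9 (-0.10 to -0.08, adjusted p = 0.0771 to 0.153, edgeR), and Rpl28 without WT 1, WT 2 or tKO 7 (-0.09 to -0.06, adjusted p = 0.126 to 0.229, edgeR).

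**Figure D4:**
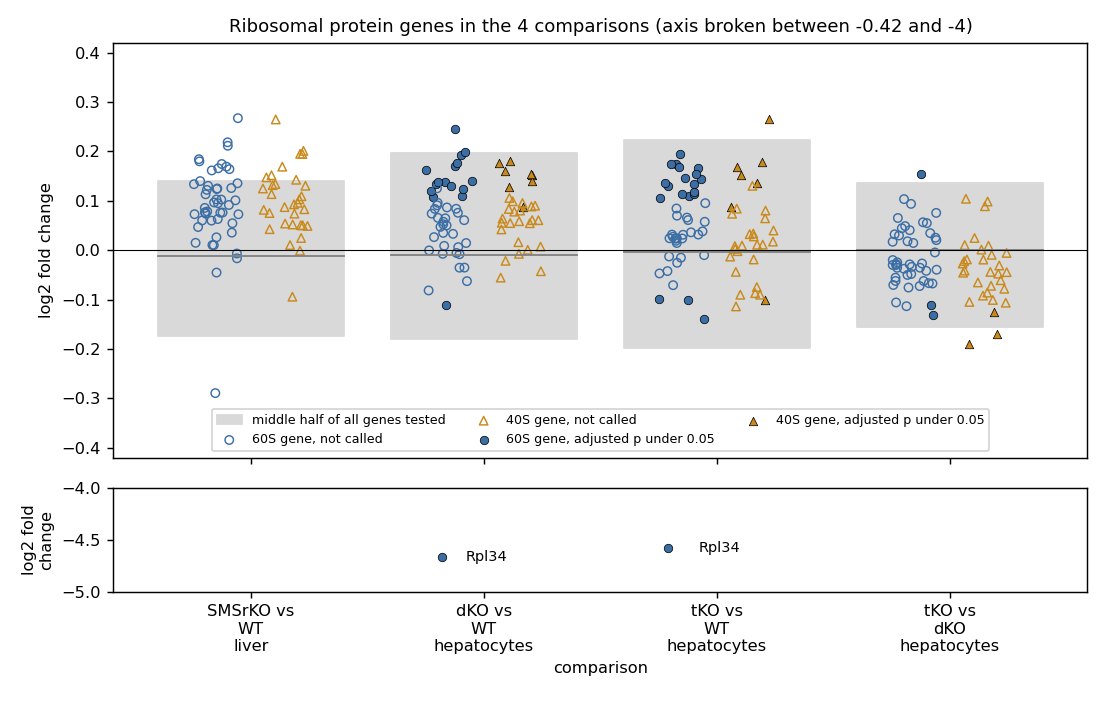
Log2 fold change of each ribosomal protein gene in the 4 comparisons, the group named first over the other, with circles for 60S and triangles for 40S genes and filled symbols for calls by edgeR. Grey boxes span the quartiles of all genes tested and the grey line is their median; the vertical axis is broken so that Rpl34, at -4.67 and -4.57, can be shown beside the other members, which lie between -0.29 and 0.27.

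Between tKO and dKO hepatocytes 1 of 77 members was higher and 5 were lower, which is 7.79%, against 29.5% of all genes tested (14.3% higher and 15.2% lower). Without dKO 4 none was higher, without dKO 5 or dKO 6 there were 3, and without dKO 5 or tKO 9, 2 were lower. The median log2 fold change was -0.03 (-0.01 without dKO 5 and -0.06 without dKO 4), against 0.00 over all genes. The groups did not overlap, in either direction, in 14.3% of members, against 39.8% of all genes tested. Rps2 had the greatest difference, with 943.8, 983.2 and 941.9 CPM in tKO, against 1048, 1106 and 1117 CPM in dKO libraries (log2 fold change -0.19, SE 0.035, adjusted p = 1.13e-05, edgeR), and the groups do not overlap. In dKO itself Rps2 was higher than in WT by 0.09 (SE 0.035, adjusted p = 0.0366, edgeR), and its means ran dKO above WT above tKO. The call against WT was lost without WT 1, WT 2, WT 3, dKO 5 or dKO 6 (0.07 to 0.09, adjusted p = 0.0677 to 0.187, edgeR), while that between tKO and dKO held without each library in turn. Rps27, which encodes a zinc finger protein of the 40S subunit, was lower in tKO with a log2 fold change of -0.17, Rpl35a with -0.13, Rps19 with -0.13 and Rpl13 with -0.11. Rps27 lost its call without tKO 7 (-0.17, adjusted p = 0.0707, edgeR) or tKO 9 (-0.10, adjusted p = 0.156, edgeR) and by limma. Rpl35a lost it without dKO 4, dKO 5, tKO 8 or tKO 9 (adjusted p = 0.0964 to 0.156, edgeR), Rps19 without dKO 5, dKO 6, tKO 7 or tKO 9 (adjusted p = 0.0509 to 0.262, edgeR) and Rpl13 without dKO 4, dKO 5 or tKO 9 (adjusted p = 0.0587 to 0.122, edgeR), with log2 fold changes of -0.12 to -0.09 in Rpl35a and Rpl13 and of -0.13 to -0.09 in Rps19. These 3 also lost their calls with plain library totals and by limma. Rplp1 was the higher one, with 356.5, 410.3 and 339.4 CPM in tKO, against 320.2, 332.6 and 341.1 CPM in dKO (0.15, SE 0.048, adjusted p = 0.0116, edgeR). The groups overlap, and the call was lost without tKO 8 (0.07, adjusted p = 0.243, edgeR) or dKO 4 (0.13, adjusted p = 0.0695, edgeR).

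The hepatocyte calls rest on a very small spread between libraries. edgeR's common coefficient of biological variation was 3.52% for the hepatocyte fit, against 20.3% for the liver fit. The liver dispersion was then put in its place, as the same value for every gene and with edgeR's likelihood ratio test. With it, dKO against WT gave 0 higher and 1 lower member (9.20% of all genes called) and tKO against WT 0 and 1 (10.6% of all genes). For tKO against dKO it gave 0 and 0 (2.84% of all genes). The remaining call in each comparison with WT was Rpl34. In liver the members varied less than this value, with a median coefficient of variation of 7.73% in SMSrKO and 4.30% in WT. Differences as small as those of the other members cannot pass at such a spread, so this setting cannot decide their calls.

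Markers of non-parenchymal cells differed between the same hepatocyte libraries. The 5 endothelial genes summed to 103.1 to 121.8 CPM in dKO and 61.2 to 63.0 in tKO, against 17.5 to 18.6 CPM in WT libraries, and none was at 0 in a whole group. The 5 macrophage genes summed to 314.7 to 333.6 CPM in dKO and 362.2 to 382.6 in tKO, against 120.1 to 135.1 CPM in WT. The 5 stellate cell genes summed to 31.3 to 33.2 CPM in dKO and 16.0 to 17.7 in tKO, against 0.434 to 0.753 CPM in WT, where Lrat was at 0. The 5 hepatocyte genes summed to 50820 to 51750 CPM in dKO and 45110 to 47020 in tKO, against 58410 to 60620 CPM in WT. Of these 5, 2 were higher and 2 lower in dKO than in WT, against 24.0% and 20.0% of all genes. In tKO 0 were higher and 4 lower, against 25.6% and 21.8%. The 3 cholangiocyte genes summed to 168.8 to 184.4 CPM in dKO and 87.9 to 99.6 in tKO, against 170.8 to 182.1 CPM in WT. Ribosomal protein genes are expressed in all of these cells, and the part of cell makeup in the small differences above was not tested. In such bulk samples a change in the number of cells of a type cannot be told apart from a change in RNA per cell.

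In liver no member passed the test. By edgeR's quasi-likelihood test 0 of 79 members were higher and 0 lower in livers labelled SMSrKO, against 37 of 15820 genes (0.234%, 0.12% higher and 0.114% lower); DESeq2 also called 0 members, against 3.02% of all genes. At an unadjusted p under 0.05 there were 8 members, against 2075 of all genes. In simulated data the liver test recovered 16.4% of genes changed 1.5-fold, and that of dKO against WT hepatocytes 83.6%. In liver 0 members differed by at least 1.5-fold. Recovery among genes with the level and spread of the members was not tested. The fitted values leaned to one side: 73 members were above 0 and 6 below, with a median of 0.10, against -0.01 over all genes. Their quartiles were 0.05 and 0.13, against -0.17 and 0.14 over all genes. In 13 members (16.5%) every SMSrKO liver was above every WT liver, against 3.79% of all genes, and in 0 every one was below, against 4.32%.

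This lean depended on one library and on the scaling. Without SMSrKO 8 the median was 0.05, and with plain library totals it was 0.03. Without any other 1 of the 8 livers it lay between 0.08 and 0.12.

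The members with the smallest p included Rps27, Rpl36, Rpl28 and Rpl24. Rps27 had 109.6, 97.8, 100.8 and 117.3 CPM in SMSrKO livers, against 76.5, 91.5, 95.4 and 90.9 CPM in WT (log2 fold change 0.26, SE 0.096, adjusted p = 0.282, edgeR). Rpl36 had 123.6, 117.0, 106.4 and 143.7 CPM in SMSrKO, against 97.6, 98.2, 106.2 and 105.8 CPM in WT livers (0.27, SE 0.10, adjusted p = 0.296, edgeR). The groups do not overlap in either gene, though SMSrKO 7 and WT 3 are nearly equal for Rpl36. Rpl28 stood at 0.22 and Rpl24 at 0.18 on the log2 scale, with adjusted p of 0.317 and 0.340 by edgeR. Rpl24 encodes a 60S protein at the bridge between the subunits.

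Among the members and their processed copies, the calls in liver were 3 copies, and their comparisons were chosen after their values were seen. Rpl3-ps1 had 22.3, 19.2, 31.6 and 20.8 CPM in livers labelled SMSrKO, against 2.67, 2.05, 2.26 and 2.29 CPM in WT livers, a log2 fold change of 3.33 (SE 0.179, adjusted p = 6.32e-05, edgeR). Rpl3 itself had 211.2, 194.2, 141.2 and 195.3 CPM in SMSrKO, against 280.9, 200.1, 221.6 and 203.9 CPM in WT livers; the groups overlap, and it was not called (-0.29, SE 0.151, adjusted p = 0.445, edgeR). SMSrKO 7 was lowest for Rpl3 and highest for the copy. The sum of both was 208.9 ± 25.7 CPM in SMSrKO and 228.9 ± 37.6 CPM in WT livers (SD, n = 4 each). Summed with all 27 copies found in the annotation, Rpl3 stood at -0.13 (SE 0.136, adjusted p = 0.716, edgeR). Rpl3-ps1 made up 8.98% to 18.3% of the sum in SMSrKO and 0.942% to 1.11% in WT livers.

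For Rpl15, a 60S gene, the copies were lower. Its copy Gm10020 had 0.087, 0.320, 0.065 and 0.256 CPM in SMSrKO livers, against 5.02, 4.77, 5.57 and 5.43 CPM in WT, and the copy Rpl15-ps2 had 0.217, 0.214, 0.294 and 0.307 CPM in SMSrKO, against 2.24, 1.82, 1.92 and 1.57 CPM in WT livers. In reads, Gm10020 had 2, 9, 2 and 10 in SMSrKO and 233, 144, 148 and 180 in WT livers. Rpl15 had 110.4, 108.2, 102.2 and 114.1 CPM in SMSrKO, against 95.6, 94.2, 99.98 and 99.1 CPM in WT livers (log2 fold change 0.16, SE 0.072, adjusted p = 0.377, edgeR). With both copies added, the sum was 109.2 ± 5.06 CPM in SMSrKO and 104.3 ± 3.06 CPM in WT livers (SD, n = 4 each), and with all 24 copies Rpl15 stood at 0.07 (SE 0.072, adjusted p = 0.712, edgeR). By edgeR both copies were lower, Gm10020 with a log2 fold change of -4.76 (adjusted p = 0.000324) and Rpl15-ps2 with -2.83 (adjusted p = 0.00121).

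**Figure D5:**
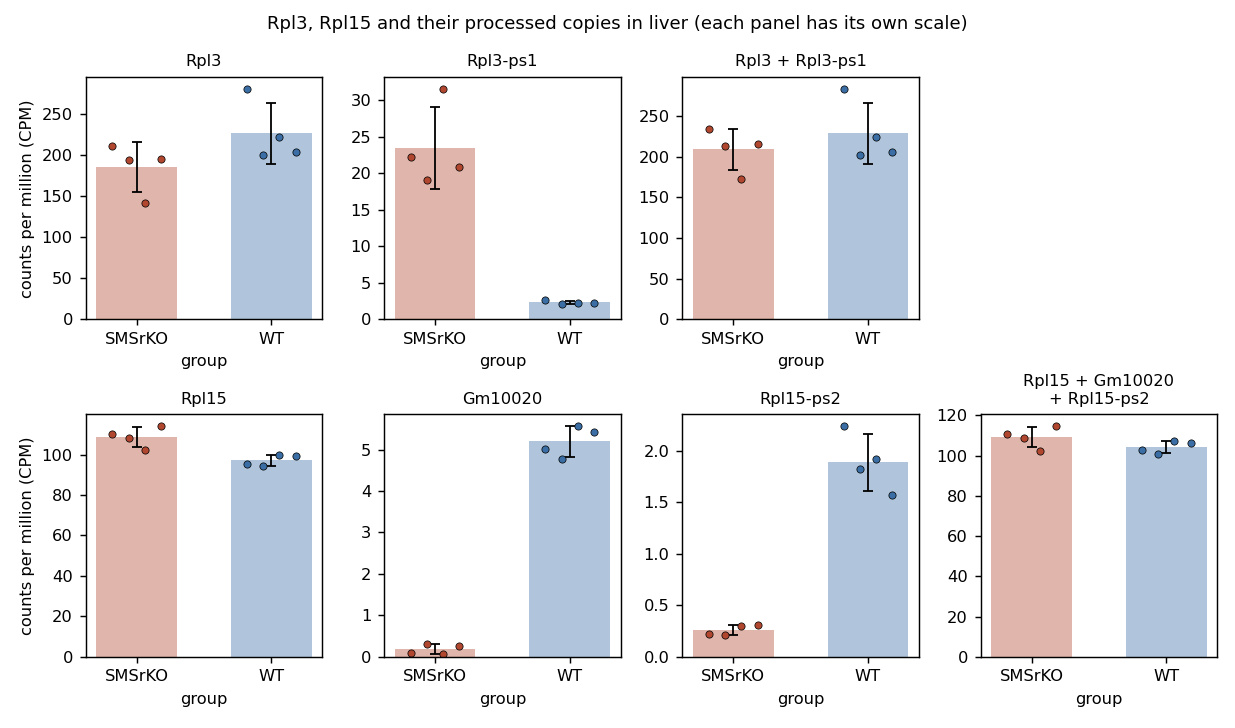
CPM of Rpl3, Rpl15, their processed copies and the sums in SMSrKO and WT livers. Bars are group means, error bars SD and points the 4 libraries of a group, each panel with its own axis from 0; the copies separate the groups while the sums of 208.9 and 228.9 CPM (Rpl3) and of 109.2 and 104.3 CPM (Rpl15) lie close.

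These copies too are near-identical to the coding part of their genes. The Rpl3 transcript compared is 1351 bases long and its copy 1210. The Rpl15 transcript is 1922 bases long, Gm10020 612 and Rpl15-ps2 613, and the identities hold over the aligned bases alone. Rpl3 (GRCm38, chr15:80077791-80091868, minus strand) and the processed pseudogene Rpl3-ps1 (chrX:13202571-13203780, plus strand) differ at C57A and T786C, with 99.83% identity. Rpl15 (chr14:18267823-18271391, minus strand) and the processed pseudogene Gm10020 (chr15:52477617-52478228, minus strand) differ at A156G and C202A, with 99.67% identity, while Rpl15-ps2 (chr9:72060937-72061549, plus strand) has 8 differences and 98.69% identity. Coding windows are given below to show the letters that separate gene and copy, in capitals.
Rpl3, coding bases 27 to 86: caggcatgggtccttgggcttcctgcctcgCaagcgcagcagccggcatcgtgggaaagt
Rpl3-ps1, coding bases 27 to 86: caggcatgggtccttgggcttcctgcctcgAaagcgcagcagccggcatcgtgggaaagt
Rpl15, coding bases 149 to 208: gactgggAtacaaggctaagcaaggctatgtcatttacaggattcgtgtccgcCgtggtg
Gm10020, coding bases 149 to 208: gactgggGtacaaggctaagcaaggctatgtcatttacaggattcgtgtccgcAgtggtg
As with Rpl34, which locus the reads came from was not tested.

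Over the whole liver annotation 1225 processed copies of 79 members were found by symbol or by sequence (at least 85% identity over at least 50% of the copy), and 827 of them had reads. They held 1.87% of the counts on members and copies together. Of the 110 copies tested, 1 was higher and 2 were lower in SMSrKO livers, the 3 copies above. Copies took the largest part of the sum, leaving out the barely detected Rpl10l, for Rps7 (14.2%, 25 copies) and Rpl41 (13.9%, 4 copies). In hepatocytes 2 copies were listed under -ps symbols, Rpl34-ps1 and Rpl31-ps12. Rpl31-ps12 had 5.08 ± 0.976 CPM in dKO, 2.61 ± 0.783 in tKO and 3.15 ± 0.765 CPM in WT libraries (SD, n = 3 each). Adding it to Rpl31 left Rpl31 higher in dKO (0.18, adjusted p = 0.000721, edgeR) and ended its call in tKO (0.11 with an adjusted p of 0.0501, against 0.11 and 0.0365 for the gene alone). The call of Rpl31 in tKO was also lost by DESeq2 (adjusted p = 0.0709) and, by edgeR, without WT 1, WT 2, WT 3, tKO 7 or tKO 9 (0.09 to 0.12, adjusted p = 0.06 to 0.138).

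Some members are known for roles beyond the ribosome or for use as references. Rplp0, the stalk protein gene often used as a reference in quantitative PCR, averaged 905.6 ± 22.5 CPM in dKO, 902.7 ± 21.1 in tKO and 910.7 ± 10.7 CPM in WT hepatocytes (SD, n = 3 each), and 360.1 ± 33.5 CPM in SMSrKO and 351.4 ± 40.8 CPM in WT livers (SD, n = 4 each). It was called in no comparison. Rpl5 and Rpl11, whose proteins bind Mdm2 when ribosome assembly fails, differed in their calls: Rpl5 was higher in tKO than in WT hepatocytes by 0.12 (adjusted p = 0.00933, edgeR), and Rpl11 stood at 0.02 (adjusted p = 0.677, edgeR). Rps6 was higher in tKO by 0.09 (adjusted p = 0.0492, edgeR) and stood at 0.08 in dKO (adjusted p = 0.0853, edgeR). In tKO the call of Rpl5 was lost without WT 3 (0.10, adjusted p = 0.0767, edgeR). That of Rps6 was lost without WT 2, WT 3, tKO 7, tKO 8 or tKO 9 (0.07 to 0.10, adjusted p = 0.0511 to 0.217, edgeR), with RLE factors, without the filter on low counts and by DESeq2. Rpsa, which encodes the 40S protein related to the laminin receptor, Rps27a, made as a fusion with ubiquitin, Rpl13a, Rpl22 and Rplp2 were called in no comparison.

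The ribosomal protein genes that the symbol pattern misses were read alongside. Of these, 9 were tested in liver and 0 called; Fau, which encodes a ubiquitin-like protein fused to eS30, had the greatest value at 0.35 (adjusted p = 0.162, edgeR), with 201.7 ± 15.7 CPM in SMSrKO and 158.2 ± 10.2 CPM in WT livers. Of all genes tested in liver, 0.234% were called. In hepatocytes 7 were tested. Of all genes there, 24.0% were higher and 20.0% lower in dKO than in WT, and 25.6% and 21.8% in tKO. In dKO 3 were higher than in WT (Rps3a1 by 0.11, Rack1 by 0.11 and Rpl22l1 by 0.33), and in tKO Rack1 was higher by 0.12 while Fau and Rpl7l1 were lower, at -0.23 and -0.16. Leaving out 1 library ended the calls in dKO of Rps3a1 (without dKO 5, 0.09, adjusted p = 0.0941, edgeR), of Rack1 (without WT 3 or dKO 6, 0.09 and 0.07, adjusted p = 0.123 and 0.224, edgeR) and of Rpl22l1 (without WT 2, WT 3, dKO 4 or dKO 6, 0.23 to 0.31, adjusted p = 0.0644 to 0.18, edgeR). In tKO it ended those of Rack1 (without WT 3, tKO 8 or tKO 9, 0.09 to 0.10, adjusted p = 0.051 to 0.0739, edgeR) and Rpl7l1 (without tKO 8, -0.12, adjusted p = 0.0836, edgeR), and not that of Fau. In dKO Rpl22l1 also lost its call by DESeq2 (adjusted p = 0.0796) and Rack1 by limma (adjusted p = 0.0545). Fau had 178.6 ± 3.58 CPM in tKO, 208.4 ± 5.34 in dKO and 209.4 ± 3.85 CPM in WT libraries (SD, n = 3 each).

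Genes that build and serve the ribosome were counted the same way. Of all genes tested, 24.0% were higher and 20.0% lower in dKO than in WT, 25.6% and 21.8% in tKO than in WT, and 14.3% and 15.2% in tKO than in dKO. Of 55 ribosome biogenesis genes, all tested in hepatocytes, 5 were higher and 19 lower in dKO than in WT, 12 were higher and 9 lower in tKO than in WT, and 16 were higher and 1 lower in tKO than in dKO, with medians of -0.08, 0.02 and 0.08 on the log2 scale. Rrs1, an assembly factor of the 60S subunit, was higher in dKO by 0.38 and in tKO by 0.58, and Rcl1, of the small subunit processome, by 0.42 and 0.38. Polr1b, a subunit of RNA polymerase I, was lower in dKO, at -0.39, and Ncl, which encodes nucleolin, was higher in tKO than in dKO by 0.16. Of 40 translation factors 2 were higher and 6 lower in dKO than in WT, and 9 higher and 8 lower in tKO than in WT, among them Eef2, the translocation factor, at -0.20 in tKO. In liver 0 of 54 biogenesis genes and 0 of 40 translation factors were called.

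The mitochondrial ribosome, a separate particle with its own nuclear-encoded proteins, was set beside the cytosolic one. Of its 78 genes 2 were higher and 20 lower in dKO than in WT hepatocytes, 5 higher and 13 lower in tKO than in WT, against 24.0% and 20.0% and against 25.6% and 21.8% of all genes tested, and none was called in liver. Mrps30 and Mrps12 were lower in tKO than in WT, at -1.19 and -1.35 on the log2 scale. For the mTOR and Myc control of TOP mRNAs 17 genes were tested. Against WT, 5 were higher in dKO, Max among them, and 3 lower, namely Rptor, Eif4ebp1 and Eif4ebp2. In tKO 4 were higher and 4 lower. Myc was higher in tKO by 0.37 and Eif4ebp1, an mTOR target that restrains cap binding, lower at -0.20. Of 9 genes of the Mdm2 and p53 arm that senses free ribosomal proteins, 3 were higher and 2 lower in dKO, and 2 higher and 3 lower in tKO than in WT. Mdm2 was higher by 0.59 in dKO and 0.31 in tKO, and Cdkn1a, a p53 target that stops the cell cycle, was higher by 0.30 in dKO. Ccng1, which encodes cyclin G1 and is also induced by p53, was lower, at -0.22 in dKO (-0.12 without WT 1, adjusted p = 0.107, edgeR) and -0.49 in tKO, and Aen, a nuclease induced by p53, was lower in tKO at -0.30. In liver Aen was lower in SMSrKO at 13.0 ± 1.46 CPM, against 24.7 ± 3.31 CPM in WT livers (-0.92, SE 0.123, adjusted p = 0.0161, edgeR); the call was lost without SMSrKO 5, SMSrKO 7, WT 2 or WT 4 (-0.94 to -0.87, adjusted p = 0.0528 to 0.0814, edgeR).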

How the data were processed

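RNA was sequenced from 8 liver and 9 hepatocyte libraries. For liver, the authors deposited whole-number counts per Ensembl gene and a TPM table, which recomputing from counts and lengths gave within 5e-05. For hepatocytes, the authors deposited expected counts (6.25% not whole, rounded here) and FPKM per Entrez gene, listing only genes above 0; others were given a count of 0. Per the submitters' processing notes, Trimmomatic 0.36, STAR 2.5.2b, Bowtie2 2.2.5 and DESeq2 1.30.1 were used with builds GRCm38 and mm10. The counting tool and its strand setting: not given in the sources used here. Overlapping genes and near-identical copies are therefore uncertain.

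Counts were tested with edgeR 4.0.16 (R 4.3.3; filterByExpr, minimum count 10; TMM; robust quasi-likelihood; Benjamini-Hochberg over all genes tested, threshold 0.05), liver in one fit and all 9 hepatocyte libraries in another. DESeq2 1.42.0 and limma 3.58.1 on log2(level + 0.1) served as alternatives. The model was tested on simulated data. Copies were found by -ps symbol or with blastn 2.17.0 against GENCODE M21 transcripts, and their counts were added to the parent gene.

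Members and lists were chosen with earlier results of these data known. Genes are named by role, by level, as the 10 members with the largest fold in each direction among calls (or the 5 smallest p), or where copies changed a call, and up to 4 genes of each other list with the smallest p; 1 gene that this rule names is not reported here. Counting error and library spread limit precision; no depth other than the library totals is known.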

Additional observations from a re-analysis of the deposited data

Results flagged for a closer look

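Rpl28, which encodes a 60S protein, was set apart by 1 of the 4 WT livers. WT 1 had 190.3 CPM, and the other WT livers had 175.1, 176.2 and 174.0 CPM, so the gap from WT 1 to the nearest of them was 0.864 of the whole range of the group. SMSrKO livers had 217.2, 196.1, 197.6 and 221.7 CPM, all above WT 1. This gap was the only one past Dixon's limit among 30 groups of 4 livers checked, and chance gives about 1 in 20.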

How the results depend on the processing

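No paired analysis was possible because the groups compared share no replicate number on the labels (WT 1 to 4 and SMSrKO 5 to 8, WT 1 to 3, dKO 4 to 6 and tKO 7 to 9). In liver 0 members were called under every alternative tried. Summed with processed copies, or with copies of any annotated type (an alternative added after the data were seen), Rpl34 turned round, to 0.386 and 0.385 in dKO against WT and to 0.391 and 0.391 in tKO against WT, and dKO against WT then had 1 lower member under both. With the dispersion of the liver libraries dKO against WT had 0 higher and 1 lower, and tKO against WT 0 and 1. Between tKO and dKO there were 0 and 0. As stated above, that setting cannot decide differences as small as those of the members other than Rpl34. By limma on log2(FPKM + 0.1) there was 1 lower in dKO against WT, 2 lower in tKO against WT, and 5 higher and 1 lower in tKO against dKO. With plain library totals tKO against WT had 2 lower, and tKO against dKO 6 higher and 2 lower. DESeq2 gave 3 lower in tKO against WT, and without a filter on low counts tKO against dKO had 2 higher and 3 lower. For tKO against WT the median member was 0.0614 with plain totals and 0.0618 by limma, and the log2 ratio of the summed levels, 0.06 with plain totals, was 0.0301 with TMM-scaled and 0.0267 with RLE-scaled totals. The cause of these moves was not tested. Leaving out 1 library gave 14 to 27 higher and 1 to 2 lower in dKO against WT, 13 to 21 higher and 3 to 8 lower in tKO against WT, and 0 to 3 higher and 2 to 7 lower in tKO against dKO; an arm left with 2 libraries shares the spread of the other groups. In liver it moved the median member between 0.0466 and 0.1226 and the summed log2 ratio between -0.049 and 0.0602. Of 113 calls of named single genes 101 were lost with the liver dispersion, 12 by limma, 11 by DESeq2, 6 with plain totals, 4 without the filter, 2 in fits of the 2 groups only, 2 with copies of any type, 1 with processed copies and 1 with RLE factors; 35 were lost without at least 1 of the libraries left out in turn. Depth limits the paralogs Rpl10l, Rpl3l, Rpl39l and Rpl32l, which were too low to test.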

Other observations

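Rpl37rt is annotated as a transcribed processed pseudogene of Rpl37 and was not among the -ps copies. It had 47.8, 54.7 and 41.6 CPM in dKO hepatocytes and 54.9, 19.98 and 37.4 CPM in tKO hepatocytes, against 45.1, 50.8 and 44.4 CPM in WT hepatocytes. It took 11.8% to 28.2% of the summed counts of gene and copy in tKO, 21.1% to 27.1% in dKO and 24.5% to 29.1% in WT. Rpl37 itself had 140.0, 149.9 and 154.6 CPM in tKO, against 138.6, 124.0 and 131.6 CPM in WT. The sum was 185.6 ± 13.7 CPM in tKO and 178.2 ± 4.77 CPM in WT (SD, n = 3 each), so the groups overlap in the sum but not in Rpl37. Summed with its copies of any annotated type, Rpl37 in tKO against WT lost its call, with a log2 fold change of 0.06 (adjusted p = 0.326, edgeR), against 0.17 for the gene alone. In liver Rpl37rt had 3.61 ± 0.238 CPM in SMSrKO and 2.82 ± 0.335 CPM in WT libraries (SD, n = 4 each).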
